A study of Caenorhabditis elegans with 4 samples.

Results

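The str genes of C. elegans encode a family of chemoreceptors with 7 membrane-spanning segments, and odr-10, the receptor for the odorant diacetyl, belongs to the same family. Members were taken by name, as every gene called str followed by a number, together with odr-10. Of 227 such genes in the gene table, 195 were measured, out of 20040 genes on the array. The measured members were 191 protein-coding genes and 4 annotated pseudogenes (str-122, str-183, str-223 and str-224), whereas 3 protein-coding members (str-35, str-176 and str-249) and 29 pseudogenes had no value. The study profiled total RNA of early embryos of the wild-type strain N2, released by bleach from gravid adults grown in liquid culture. The 4 samples came from 4 preparations of embryos whose chromatin went into immunoprecipitation (ChIP), and they form 1 group with no mutant or treated group beside it. The preparations held a mix of early stages, from the first cleavages to embryos of many cells. The methods give DNase treatment for 2 of the RNA samples and the sample labels give it for all 4, so values were not divided by it.

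Chemoreceptors of this kind sit in the cilia of sensory neurons and act through heterotrimeric G proteins. In larvae and adults, most studied members are made in 1 or a few pairs of amphid neurons of the head, such as AWA, AWB, AWC and ASI, and each neuron makes several receptors. Sensory neurons take on their fates and grow cilia later in embryogenesis than the cleavage stages that make up much of an early preparation. The family lies mostly in clusters on chromosome V, where copies of related receptor genes neighbour each other.

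Levels are log2 intensities of single-color expression arrays with 3 probes for every member transcript. Of the members, 192 had 1 transcript on the array and 3 had 2. The values hold no call of presence or absence, so a member was called high in a sample when it exceeded the median of all genes in that sample, which was 7.92, 7.92, 7.91 and 7.82 in replicates 1 to 4. Probes differ in how brightly they hybridize, so an order of genes here is an order of signal and not strictly of RNA amount. In whole-embryo RNA, fewer cells of a type and less RNA per cell cannot be told apart. The 4 samples were not equally alike. Pearson's correlation across all genes was 0.968 to 0.973 for the 3 pairs with replicate 4 and 0.985 to 0.992 for the other 3 pairs, and across the members it was 0.680 to 0.717 with replicate 4 and 0.886 to 0.912 among the rest. Results that rest on replicate 4 are therefore given with and without it. Of 10 maternal marker genes of the early embryo, 10 were above the array median in all 4 samples, and of 10 zygotic ones 8 were. Of all genes, 46.0% were.

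Most members gave low signal in every embryo sample. The median member had a mean log2 intensity of 5.05 over the 4 samples, against 4.93 for 1149 genes of the other serpentine receptor families and 7.82 for all genes of the array. On the linear scale these medians were 33.1 for the members, 30.4 for the other serpentine receptor genes and 226 for all genes. The middle of the family was narrow, with quartiles of 4.54 and 5.77, and the whole family ran from 3.97 for str-78 to 10.28 for str-225. When all genes were split by mean level into 5 equal bins, 123 of the 195 members (63.1%) fell in the lowest bin, 50 in the next, 20 in the middle bin, 2 in the fourth and 0 in the highest. Among the 22 serpentine receptor families compared, of 1 (srn, the highest) to 223 genes (srh), the str family ranked 6 by its median level. Its median was close to those of the srj family (5.03) and the srh family (5.001), below that of the sri family (5.37) and above that of the srz family (4.57).

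**Figure D1:**
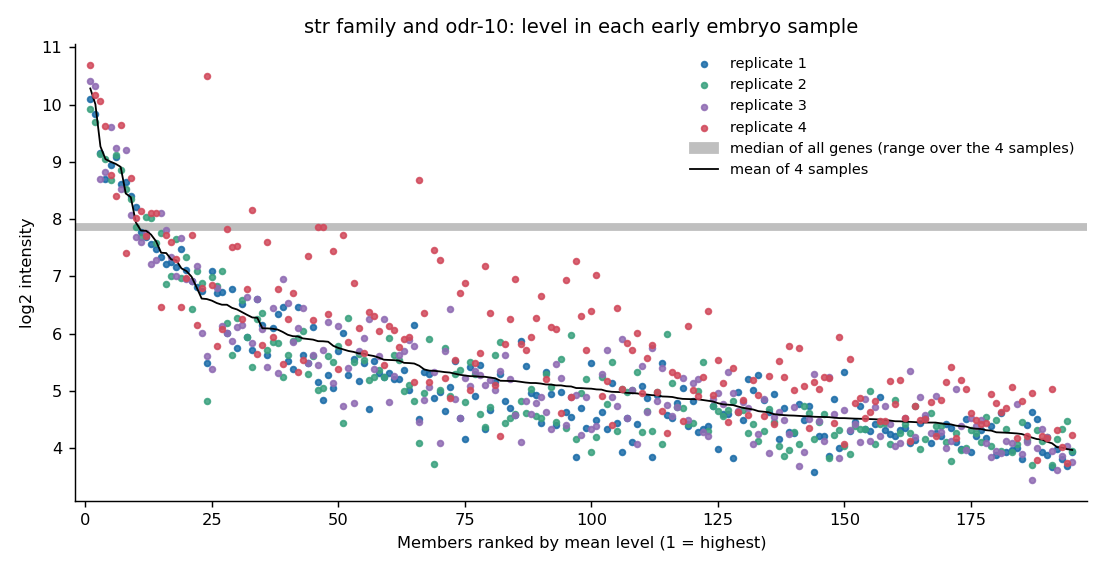
Log2 intensity (y axis) of each of the 195 members of the str family, ranked by mean level (x axis, 1 is the highest), with 1 point per sample, the mean as a line and the median of all genes as a grey band. Most points lie below the band, 8 members lie above it in all 4 samples, and the points that stand far above the mean line are mostly those of replicate 4.

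Of the members with a known neuron or ligand, odr-10, str-1 and str-3 were among the low ones. odr-10, which AWA neurons use to sense diacetyl, had 3.98, 4.16, 3.61 and 4.31 in replicates 1 to 4, a mean of 4.02 ± 0.30 (SD, n = 4). str-1, a marker of the AWB neurons, had 3.94, 4.12, 4.34 and 4.20 (4.15 ± 0.17). str-3, known from the ASI neurons, had 4.33, 4.33, 4.86 and 4.53 (4.51 ± 0.25). These 3 genes stayed more than 3 log2 units below the array median in every sample and varied little between samples.

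Another pair of known receptors varied more. str-2, which is switched on in only one of the left and right AWC neurons, had 3.87, 3.82, 5.25 and 5.23 in replicates 1 to 4 (4.54 ± 0.80), with replicates 3 and 4 above replicates 1 and 2. str-44, known from AWA and AWB, had 4.30, 3.90, 4.32 and 5.56 (4.52 ± 0.72), with replicate 4 alone above the rest. Both remained below the array median in every sample. str-113 had 5.36, 4.996, 5.69 and 5.91 (5.49 ± 0.40) and stayed below it too. str-112 had 5.63, 5.71, 5.42 and 7.61 (6.09 ± 1.02), again with replicate 4 apart from the others.

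The lowest 5 members by mean were str-78 (3.97 ± 0.19), str-163 (3.98 ± 0.36), str-182 (4.01 ± 0.23), odr-10 and str-131 (4.08 ± 0.64). Among them, str-131 was uneven, with 3.67, 3.70 and 3.94 in replicates 1 to 3 and 5.03 in replicate 4. The 4 pseudogenes spanned much of the family's range. str-122 averaged 7.14 ± 0.54, str-224 6.37 ± 0.20, str-223 5.05 ± 0.89 and str-183 4.50 ± 0.28, so an annotation as a pseudogene did not go with the lowest signal.

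High signal in all 4 samples was seen for 8 members, which is 4.10% of the family. The same rule took 30 of the other serpentine receptor genes (2.61%) and 46.0% of all genes, so the share in the family was far below that of the array as a whole. str-225 was the highest member, with 10.10, 9.92, 10.41 and 10.70 in replicates 1 to 4 (10.28 ± 0.34). str-119 followed with 9.84, 9.70, 10.32 and 10.17 (10.01 ± 0.29). Their ranges overlapped, and both kept more than 1.5 log2 units above the array median in every sample.

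The next 5 members overlapped one another. str-31 had 9.16, 9.15, 8.70 and 10.07 (9.27 ± 0.57). str-267 had 8.69, 9.05, 8.82 and 9.62 (9.05 ± 0.41). In both, replicate 4 was the highest sample. str-227 had 8.95, 8.68, 9.60 and 8.78 (9.002 ± 0.42). str-55 had 9.09, 9.12, 9.24 and 8.41 (8.97 ± 0.38), and in this gene replicate 4 was the lowest sample. str-154 had 8.62, 8.85, 8.52 and 9.65 (8.91 ± 0.51). The means of these 5 genes differed by less than their SDs. str-81 was the last of the 8, with 8.40, 8.35, 8.07 and 8.72 (8.38 ± 0.27), and its lowest sample was only just above the median of that sample.

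All 8 were protein-coding genes on chromosome V, which carried 157 of the 195 measured members (80.5%). Their mean level stood between the 53.9th and the 63.6th percentile of all genes. None of them exceeded the 75th percentile of all genes in all 4 samples. Their SDs were 0.27 to 0.57 with a median of 0.39, against 0.48 for the median member. The highest sample exceeded the second highest by 0.12 to 0.91 log2 units. The rule needs all 4 samples, so leaving out 1 sample cannot remove any of the 8, and it can only add members. Leaving out replicate 4 added str-148, which lies on chromosome II and had 8.65, 8.52 and 9.21 in replicates 1 to 3 and 7.41 in replicate 4.

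The members near the threshold formed a gradual series. str-7 had 8.20, 7.86, 7.69 and 8.01 and was above the median in 2 samples. str-76 had 7.57, 8.02, 7.22 and 8.11 and was also above it in 2. str-265 had 7.69, 8.04, 7.76 and 7.70 and str-187 had 7.77, 7.68, 7.61 and 8.14, each above it in 1 sample. str-81, str-55 and str-154 were the members just inside.

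**Figure D2:**
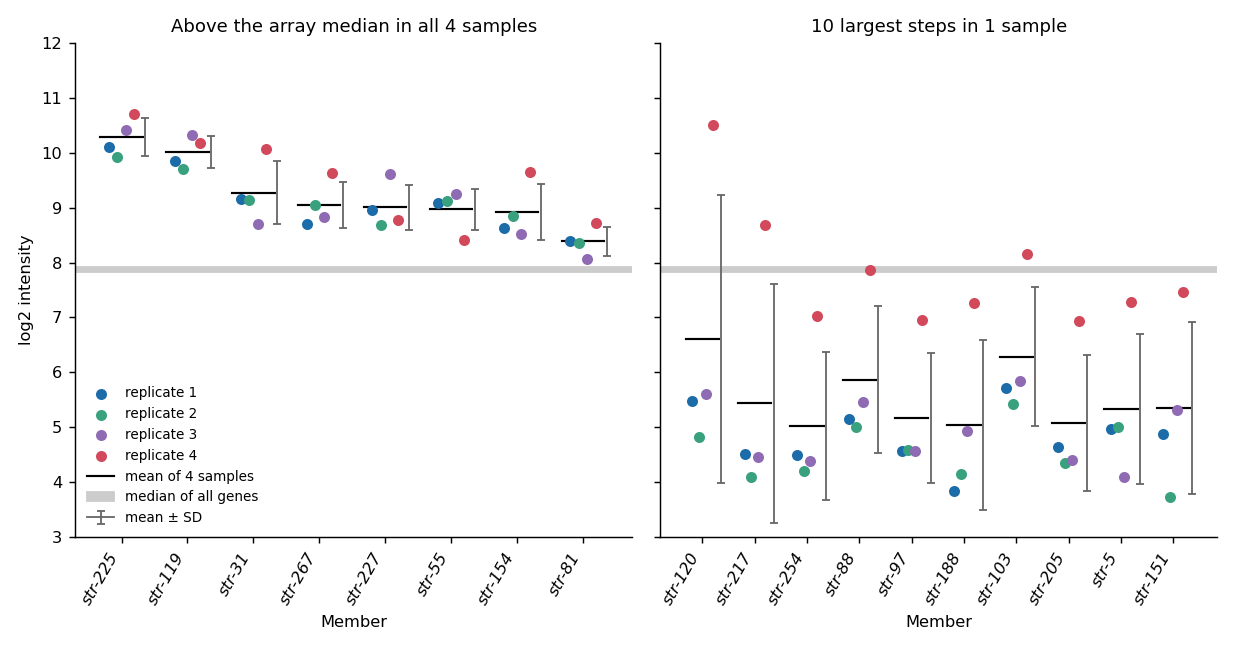
Log2 intensity (y axis) in each sample for the 8 members above the median of all genes in all 4 samples (left panel) and the 10 members with the largest gap between the highest and second highest sample (right panel), with the mean (black line), the SD (grey bar, n = 4) and the median of all genes (grey band). The 4 points of each member lie together on the left, whereas on the right replicate 4 stands alone above the other samples.

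A member could be high in a single sample in either of 2 ways, by crossing the array median there only, or by standing well above its own level elsewhere. Under the first, 10 members (5.13%) were above the median in 1 sample only, against 2.35% of the other serpentine receptor genes, 7.24% of the genes with a mean below the array median and 3.88% of all genes. Without replicate 4 this count was 4 (2.05%), of which 2 were among the 10, against 2.39% of all genes. For 8 of the 10 that sample was replicate 4 (str-33, str-88, str-103, str-120, str-171, str-187, str-217 and str-263), for str-265 it was replicate 2 and for str-73 replicate 3. Some of these were borderline, since str-187 and str-265 lay just below the median in the other samples. str-171 lay further below it in replicates 1 to 3, with 7.48, 7.58 and 7.29, and had 8.10 in replicate 4. str-73 had 7.34, 7.75 and 8.10 in replicates 1 to 3 and 6.46 in replicate 4. The 174 members above the median in no sample made up 89.2% of the family, against 45.5% of all genes.

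Under the second, a member counted when its highest sample exceeded every other by at least 1 log2 unit, that is 2-fold. Such a step was seen for 40 members (20.5%), against 238 of the other serpentine receptor genes (20.7%), 12.9% of the genes with a mean below the array median, and 7.07% of all genes. The share in the family was thus nearly that of the other serpentine receptor genes, and above that of low genes in general. In 36 of the 40 the high sample was replicate 4, which is 18.5% of the members. That share was 19.8% for the other serpentine receptor genes and 6.09% for all genes. The rest were 2 members high in replicate 2, 2 in replicate 3 and 0 in replicate 1. For 34 of the 40, the high sample itself still lay below the array median. So it did for 216 of the 238 other serpentine receptor genes with a step, and for 988 of the 1417 among all genes. Leaving out replicate 4, 15 members (7.69%) had a step among the remaining samples, and 5 of these 15 were among the 40. The share without replicate 4 was 3.74% for the other serpentine receptor genes and 2.54% for all genes. For genes with a mean below the array median it was 4.10%.

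**Figure D3:**
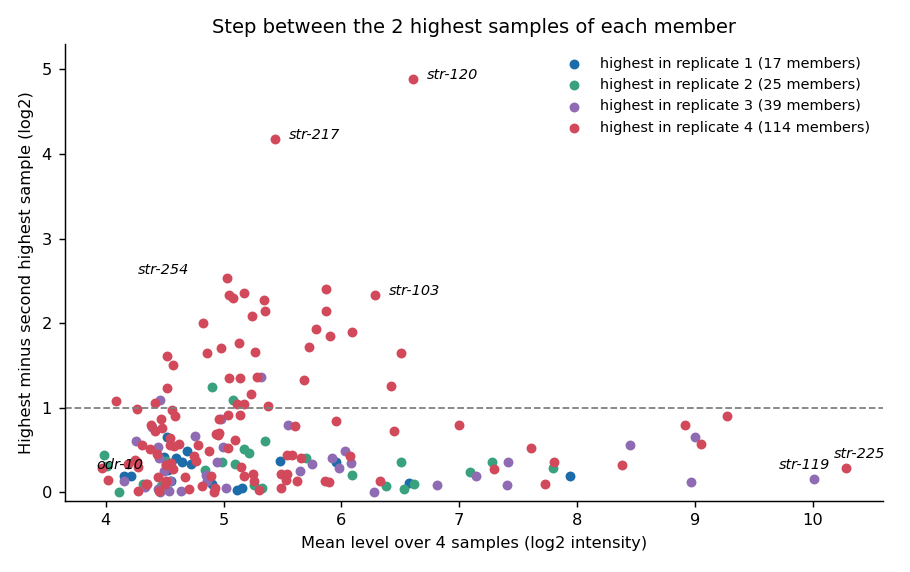
Gap between the highest and second highest sample in log2 units (y axis) against the mean log2 intensity over the 4 samples (x axis) for each of the 195 members, colored by the sample in which the member was highest. All points above 2 are of members highest in replicate 4, the members with a mean above 7 all lie below the dashed line at 1 log2 unit, and 114 members were highest in replicate 4.

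The largest step was that of str-120, which had 5.49, 4.82 and 5.61 in replicates 1 to 3 and 10.50 in replicate 4. Its step of 4.89 log2 units was 29.6-fold, and in replicate 4 it was close to the level of str-225. str-217, a receptor of the ADL neurons needed for the response to the repellent DEET, had 4.52, 4.09 and 4.46 in replicates 1 to 3 and 8.69 in replicate 4. Its step was 4.17 log2 units, or 18-fold. In both genes the other samples differed far less from one another than from replicate 4. Their SD without replicate 4 was 0.43 for str-120 and 0.23 for str-217. In both, replicate 4 was the only sample above the array median.

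Smaller steps in replicate 4 were shared by many members. str-254 had 4.49, 4.20 and 4.39 in replicates 1 to 3 and 7.03 in replicate 4. str-97 had 4.57, 4.59 and 4.57 and then 6.95 in replicate 4. str-205 had 4.64, 4.34 and 4.41 and 6.94 in replicate 4. These 3 genes were even in the other samples and stayed below the array median in replicate 4 as well. str-88 had 5.15, 5.01 and 5.45 in replicates 1 to 3 and 7.86 in replicate 4. str-103 had 5.71, 5.42 and 5.84 and 8.16 in replicate 4. str-33 had 4.83, 5.05 and 5.72 and 7.86 in replicate 4. In these 3, replicate 4 passed the array median, by little for str-88 and str-33. str-263, with 6.01, 6.18 and 6.003 in replicates 1 to 3 and 7.83 in replicate 4, passed it by 0.01 log2 units.

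In 3 further members with a large step the other samples were uneven. str-188 had 3.84, 4.16 and 4.93 in replicates 1 to 3 and 7.27 in replicate 4. str-5 had 4.98, 5.01 and 4.09 and 7.28 in replicate 4. str-151 had 4.88, 3.73 and 5.32 and 7.47 in replicate 4. Across all 36 members with a step in replicate 4, the step ran from 1.02 to 4.89 log2 units with a median of 1.71. Their median level was 6.91 in replicate 4, against 4.71 for the mean of the other samples. A step of at least 2 log2 units was seen for 13 members (6.67%), and the high sample was replicate 4 in all 13. The share with such a step was 4.70% for the other serpentine receptor genes and 1.61% for all genes. For genes with a mean below the array median it was 3.05%.

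The 4 members with a step in another sample were named after their values were seen. str-60 had 6.0001 in replicate 2 and 4.58, 4.76 and 4.26 in replicates 1, 3 and 4. str-165 had 5.98 in replicate 2 and 4.55, 4.89 and 4.89 in the others. str-77 had 6.42 in replicate 3 and 5.06, 4.92 and 4.88 in replicates 1, 2 and 4. str-256 had 5.35 in replicate 3 and 4.10, 4.26 and 4.13 in the others. Their steps of 1.09 to 1.36 log2 units were small beside those of str-120 and str-217, and none of the 4 reached the array median. In the opposite direction, 6 members (3.08%) were at least 1 log2 unit lower in 1 sample than in every other. That share was 3.31% for the other serpentine receptor genes and 5.10% for all genes.

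Higher signal in replicate 4 was not limited to members with a step. The median of the family was 4.83, 4.81 and 4.89 in replicates 1 to 3 and 5.54 in replicate 4, and the number of members above the array median was 10, 11, 10 and 18. Replicate 4 was above the mean of the other samples for 145 members (74.4%), by a median of 0.50 log2 units over the family. The same comparison gave 70.6% and 0.42 for the other serpentine receptor genes, 51.9% and 0.04 for genes with a mean below the array median, and 47.5% and -0.03 for all genes. Replicate 4 was the highest sample for 114 members (58.5%), 54.7% of the other serpentine receptor genes and 28.5% of all genes. The spread of the family changed with it, since the median SD of a member was 0.48 over 4 samples and 0.31 without replicate 4. These SDs were 0.48 and 0.32 for the other serpentine receptor genes, and 0.35 and 0.28 for all genes. For genes with a mean below the array median they were 0.48 and 0.35.

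**Figure D4:**
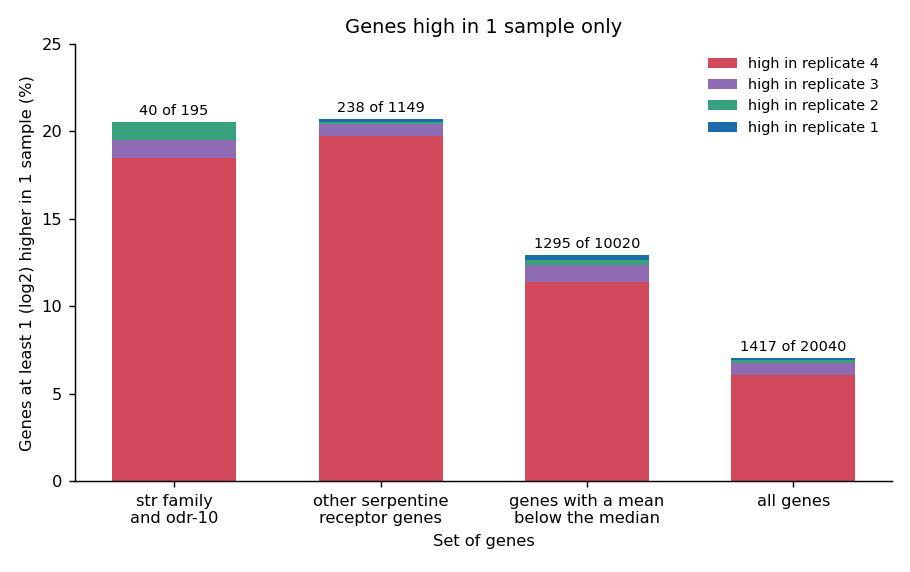
Percentage of genes at least 1 log2 unit higher in 1 sample than in every other (y axis), for the str family, the other serpentine receptor genes, genes with a mean below the array median and all genes (x axis), with each bar divided by the sample that was high. Numbers above the bars are genes with such a step of all genes in the set. Replicate 4 makes up most of every bar, and the bars of the str family (20.5%) and the other serpentine receptor genes (20.7%) are nearly of one height.

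Markers of the cells that use these receptors were, as a list, not higher in replicate 4. Of 13 genes of ciliated sensory neurons, 2 (15.4%) were above the array median in all 4 samples, 9 (69.2%) in none, and 0 had a step. All genes had 46.0% above it in all samples, 45.5% in none and 7.07% with a step. With 13 genes, the absence of a step is a description of this list. Their median was 6.51, 6.74 and 6.70 in replicates 1 to 3 and 6.09 in replicate 4, and the median gene of the list lay 0.78 log2 units lower in replicate 4 than in the other samples. The 2 were osm-1, an intraflagellar transport gene (10.13 ± 0.32), and daf-19, the transcription factor of cilium genes (13.91 ± 0.08). Among the low markers, che-2 averaged 4.74 ± 0.65, xbx-1 4.88 ± 0.65 and tax-4 4.89 ± 0.51. Replicate 4 had a median of 7.62 over 6 gut markers, whose medians elsewhere were 7.09 to 7.24, and of 7.31 over 5 epidermis markers, whose medians elsewhere were 6.27 to 6.61. Of 5 muscle markers the median was 9.20 in replicate 4 and 7.72 to 9.75 in the others, of 6 sperm markers 8.88 in replicate 4 and 7.93 to 8.53 in the others, and of 10 general neuron markers 9.42 in replicate 4 and 9.79 to 10.03 in the others. Gene by gene, the median difference of replicate 4 from the mean of the others was 0.39 log2 units for gut and 0.42 for epidermis. It was 0.07 for muscle, -0.28 for sperm and 0.10 for general neurons. For the sperm and general neuron lists, the list medians and the gene-by-gene differences thus went in opposite directions. The part of these cell types in the values of the str genes was not tested.

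Members with a step in replicate 4 were sometimes neighbours. In the gene order, 88 members lay next to another measured member, in 52 adjacent pairs. In 4 of these pairs both genes had a step, in each case in replicate 4, and in 12 pairs exactly 1 did. Of all members, 20.5% had a step. Adjacent pairs of other genes were not counted, so these pairs are a description and not a trait of the family. str-254 and str-97, already given, were such a pair and had nearly the same values in all 4 samples. str-12 lay beside str-263 and had 4.39, 4.41 and 4.49 in replicates 1 to 3 and 6.14 in replicate 4. The step was 1.65 log2 units in both genes, although the levels differed by more than 1.5 log2 units in every sample. The other pairs were str-18 with str-19 and str-228 with str-226. Whether the RNA of one member hybridized to the probes of a related neighbour was not tested.

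Other neighbours differed widely. str-119 and str-120 were adjacent, and in replicates 1 to 3 str-119 was high and str-120 low, while in replicate 4 the levels were 10.17 and 10.50. A run of 4 members held both str-225 and str-227 at its ends. Between them, str-228 had 4.52, 5.36, 4.53 and 6.72 (5.28 ± 1.03) and str-226 had 5.76, 6.28, 6.12 and 7.53 (6.42 ± 0.77). The difference of 4.999 log2 units between the means of str-225 and str-228 was the largest within any adjacent pair, against a median of 0.73. The run of 6 members from str-173 to str-166, on chromosome IV, stayed below the array median throughout, with means of 4.98 to 6.28.

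**Figure D5:**
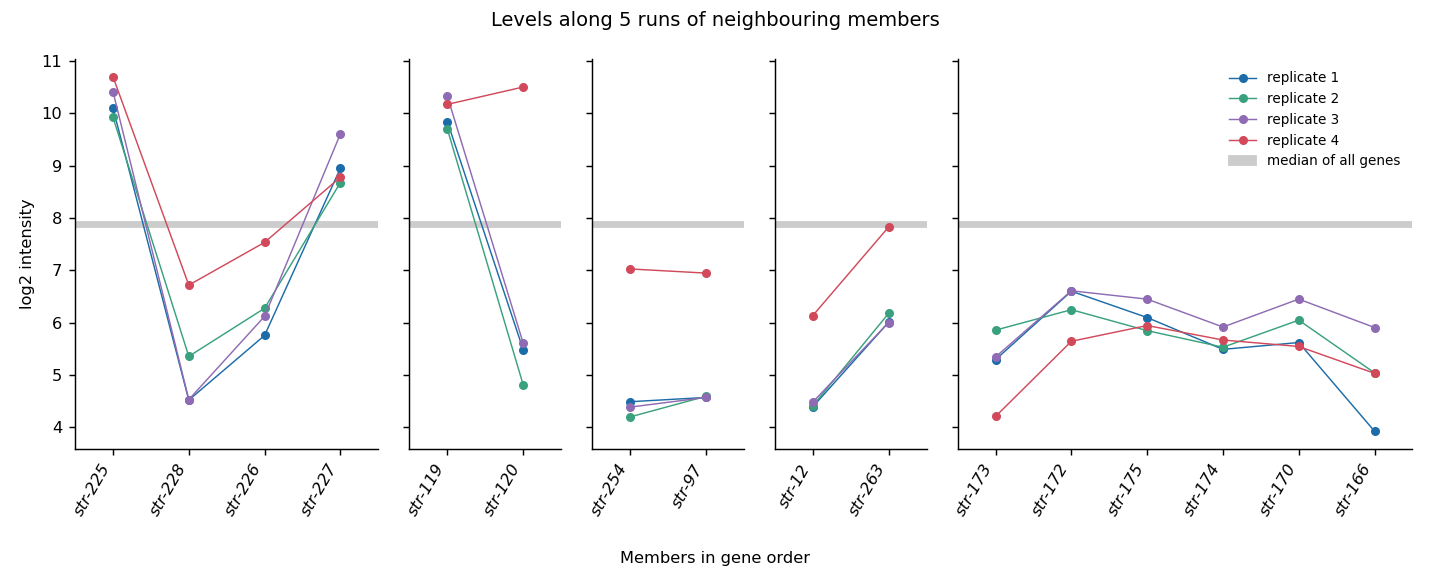
Log2 intensity (y axis) in each sample along 5 runs of members that are next to each other in the gene order (x axis, members in that order), with the median of all genes as a grey band. str-225 and str-227 are above the band and the members between them below it, str-120 reaches str-119 in replicate 4 only, the pairs str-254 with str-97 and str-12 with str-263 are both higher in replicate 4, and the run from str-173 to str-166 stays low.

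Steps were counted by chromosome as well. Chromosome V held 157 measured members with a median level of 5.08, of which 36 (22.9%) had a step, against 10.96% of all genes and 15.3% of the genes with a mean below the array median on that chromosome. Without replicate 4, 13 of the 157 (8.28%) had one, against 3.26% of all its genes. Chromosome IV held 27 members with a median of 4.82, of which 1 (3.70%), str-44, had a step and 0 were high in all samples. All genes of chromosome IV had 6.52% with a step and its genes below the array median 11.2%, and without replicate 4, 1 of the 27 members (3.70%) and 2.97% of its genes had one. The X chromosome held 6 members, among them odr-10, and 2 of the 6 (str-79 and str-123) had a step. All genes of the X chromosome had 7.37% with a step and its genes below the array median 13.2%. Without replicate 4, 1 of the 6 members and 2.00% of its genes had one. The remaining 5 members lay on chromosomes I, II and III, and 1 of these, the pseudogene str-223 on chromosome II, had a step. All genes of chromosomes I, II and III had 4.38%, 6.09% and 3.45% with a step.

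The members high in all 4 samples had 9 measured neighbours that are not str genes, with a median level of 8.62. Of these 9, 6 (66.7%) were above the array median in all 4 samples. For the neighbours of all other members it was 50 of 214 (23.4%), with a median of 5.82. All genes had 46.0% and a median of 7.82. With only 9 such neighbours, the share is a description of these genes. ugt-64, a predicted UDP-glucuronosyltransferase gene next to str-225, averaged 13.30 ± 0.22. The pseudogene T26H2.10 next to str-81 averaged 11.88 ± 0.29, and T26H2.11, which overlaps str-81, was not measured. F26D2.16 next to str-55 averaged 10.30 ± 0.26. str-267 lay between F56A4.4 (8.72 ± 0.14) and F56A4.3 (8.11 ± 0.16). str-154 lay between Y45G12C.3 (8.62 ± 0.25) and gst-10, a glutathione S-transferase gene (7.44 ± 0.40). The neighbours of str-119 and str-31 were lower, at 6.58 ± 0.75 for the chemoreceptor gene srd-71 and 7.09 ± 0.61 for the nuclear hormone receptor gene nhr-172. A high neighbour was also found beside members that were not high, such as str-120 beside str-119.

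Of the 3 members with 2 transcripts on the array, str-174 was the one whose transcripts differed most. Its transcript a had 6.25, 6.45, 7.38 and 6.71 in replicates 1 to 4 (6.70 ± 0.49), and transcript b had 4.73, 4.61, 4.46 and 4.62 (4.60 ± 0.11), so the gene value of 5.65 is a mean of unlike probes. The transcripts of str-180 averaged 5.19 ± 0.86 and 5.03 ± 0.82, and those of str-169 4.46 ± 0.23 and 4.17 ± 0.26.

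Genes that act with the receptors ranged from levels as low as those of the family to levels far above it. Of 37 listed partners, all measured, 18 (48.6%) were above the array median in all 4 samples, 15 (40.5%) were in none, and the median was 7.95. All genes had 46.0% above it in all samples, 45.5% in none and a median of 7.82, so the list as a whole was near the array. Among 7 genes for the transcription and delivery of receptors, 5 (71.4%) were high in all samples. ceh-36, a homeobox gene of the AWC fate, averaged 13.77 ± 0.37, and odr-8, needed to bring ODR-10 to the cilium, averaged 13.76 ± 0.20. The nuclear receptor gene odr-7, which switches on odr-10 in AWA, averaged 4.81 ± 0.65, and the AWB homeobox gene lim-4 7.29 ± 0.79. odr-7 thus lay near odr-10 at the low end. It had a step in replicate 4, of 1.24 log2 units, whereas the 2 highest samples of odr-10 differed by 0.15. A step was seen for 2 of the 37 partners, against 7.07% of all genes.

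The G proteins and channels of olfactory neurons were mostly low. Among 10 genes for G proteins and their regulators, 2 were high in all samples, the RGS protein gene eat-16 (13.21 ± 0.33) and the arrestin gene arr-1 (12.89 ± 0.18). The G protein alpha subunit genes gpa-13 (4.70 ± 0.27) and gpa-3 (4.82 ± 0.37) were the lowest of this group, and gpa-6 had a step of 1.70 log2 units in replicate 4. Among 8 genes for channels and second messengers, the cGMP-dependent kinase gene egl-4 (12.99 ± 0.24) was high in all samples. The channel subunit gene tax-2 averaged 7.55 ± 0.26, tax-4 4.89 ± 0.51 and ocr-1 4.94 ± 0.16. Of the 12 genes that set the one-sided expression of str-2 in AWC, 10 (83.3%) were high in all samples, against the same 46.0% of all genes. The kinase gene nsy-1 averaged 14.11 ± 0.31 and the zinc finger gene die-1 13.73 ± 0.24, whereas the innexin gene inx-19 averaged 6.42 ± 0.71 and the calcium channel subunit gene unc-36 7.16 ± 0.52. str-2 itself was at 4.54 ± 0.80.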

How the data were processed

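RNA of 4 early embryo samples of strain N2 was measured on single-color NimbleGen expression arrays. According to the methods and the submitters' processing notes, the authors quantile normalized the arrays and then summarized them by RMA to 1 value per transcript. Each deposited value was a linear intensity, with neither a background value nor a detection call beside it. The version of RMA is not given in the sources used here, nor is the build behind the array. A series-wide table repeated these intensities (0 of 92720 differed). ChIP data were not analysed here.

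Intensities were converted to log2 without a pseudocount or a filter, and transcripts of a gene were averaged, which reduced 23180 transcripts to 20040 genes. A RefSeq table of assembly WBcel235 gave symbols for 19383 genes, chromosomes and gene types. Its coordinates were used only to set the gene order and to find neighbours that overlap. High meant above the median of all genes of a sample. A step was the highest minus the second highest sample. With 1 group there is no test between conditions, so counts stand beside those of all genes, and no p-value was computed. Nothing says that the preparations were from separate cultures, so the SD may be partly technical. The 4 arrays limit the precision. The counting rules were tested on simulated data. Python 3.11.15, numpy 2.4.6, pandas 2.3.3 and matplotlib 3.10.9 were used.

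The members, lists and rules were chosen with earlier results of these data known. Named genes are the members high in all samples, those above the median in 1 sample only, the 10 largest steps, the 5 highest and 5 lowest means, the 3 members nearest to the threshold on each side, members of known neuron or ligand, neighbours of the high members, and of each list the 2 highest and 2 lowest genes. Members in neighbouring pairs and runs, str-76, str-79, str-123, str-148, the 4 pseudogenes, gpa-6 and members with 2 transcripts or a step outside replicate 4 were named after their values were seen, as were the markers osm-1, daf-19, che-2, xbx-1 and tax-4. Alternatives were leaving out each sample, other thresholds, steps and filters, the highest transcript, repeated scaling, the series table, linear means, percentile ranks, only protein-coding members and leaving out odr-10. Sequences and the similarity of members were not analysed here.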

Additional observations from a re-analysis of the deposited data

Results flagged for a closer look

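In 9 of the 36 members named by rule, replicate 4 stood far from the other samples, with a gap to the next sample that took up most of the whole range over the 4 samples. The gap divided by the range (Dixon's ratio) was 0.991 for str-97, 0.907 for str-217, 0.904 for str-263, 0.897 for str-254, 0.887 for str-205, 0.865 for str-112, 0.860 for str-120, 0.848 for str-103 and 0.844 for str-88. The median of the family in each sample behaved likewise, with a ratio of 0.890 for replicate 4. In all 10 cases replicate 4 was the high sample. Chance flags about 1 in 20 groups of 4 values, and members with a large step were named for that step, so their ratios are a description. Over the family 25 members (12.8%) passed the critical value of this ratio, against 9.83% of the other serpentine receptor genes and 7.88% of all genes.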

How the results depend on the processing

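The 8 members high in all samples became 0 with the 75th percentile of all genes as the threshold, and 10 with the 95th percentile of the other serpentine receptor genes. The members high in 1 sample only became 0 and 6 under the same thresholds. The 40 members with a step became 13 with a step of 2 log2 units, 82 with 0.5, 6 when the high sample also had to exceed the array median, and 16 among the 72 members above the 20th percentile of all genes. Leaving out 1 sample gave 8 to 9 members high in all samples, 4 to 11 high in 1 sample only, 15 to 48 with a step, a median level of 4.80 to 5.17 and a median SD of 0.31 to 0.50. The values 4, 15, 4.80 and 0.31 were those without replicate 4, and the cause was not tested. As a percentile rank among all genes the median member stood at 16.02, which is another scale. Shifting the arrays to the same median gave 44 members with a step, 39 of them shared with the 40, and repeated quantile normalization gave 35, all shared. Of the 36 members named by rule, the step moved by more than the member's SD in 23 without replicate 4, in 2 without replicate 3, in 1 without replicate 2, and in none without replicate 1 or under other scaling, the highest transcript or the series table. With no background value or detection call beside the intensities, signal at the low end cannot be read as presence or absence of RNA. Cross-hybridization between related members was not tested. No paired analysis was possible because there is 1 group.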

Other observations

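The low end of the array holds repeated values. Among the 195 members, 34 shared their exact value with at least 1 other member in replicate 1, 28 in replicate 2, 32 in replicate 3 and 12 in replicate 4. In replicate 1, 5 members had the same log2 intensity of 4.22. The family ranked 11 of 22 serpentine receptor families by the share of genes with a step of at least 1 log2 unit, at 20.5%, with the sru family at 27.5% and the srh family at 24.2%. In the srh family, all 54 genes with such a step had it in replicate 4, against 36 of the 40 in the str family.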
